A study of Homo sapiens and Rattus norvegicus with 26 samples.

Results

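Genes whose response to fluid shear stress ran opposite ways in 2 human models made from a single stem cell line are described here. The models were hBMEC-like cells, which are brain microvascular endothelial cell-like cells, and hECs, which are endothelial cells without a brain character. For each gene the log2 change at high over low shear was taken in each model, and the difference between these changes (hBMEC-like minus hEC, the interaction of shear and model) was tested in 1 fit over 12 of the 26 libraries of the series. A gene was counted as going opposite ways where the interaction passed an adjusted p of 0.05 and the shear change also passed it, with opposite signs, within each model's own fit. Of 17943 genes tested, 389 met all 3 conditions. In this class, 261 rose in hBMEC-like cells and fell in hECs, and 128 fell in hBMEC-like cells and rose in hECs. The 3 tests share the same libraries, so the class is a description by 3 thresholds.

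The groups were hBMEC-like cells at high shear, hBMEC-like cells at low shear, hECs at high shear, and hECs under low shear, with 3 libraries each. High shear was 12 dyne/cm2 and low shear 0.1 dyne/cm2 for 72 hours by the description given with the data. The study's methods give a low value several times higher, so the size of the step from low to high shear is uncertain. All cells came from IMR90-4, an established human induced pluripotent stem cell (iPSC) line, and a replicate was a differentiation begun at another passage of that line. As high and low shear libraries were paired within a replicate, p-values carry the spread of the shear change between differentiations of 1 donor line. hECs were grown from endothelial progenitors enriched by magnetic sorting, in endothelial medium with FGF2, VEGF and DMSO, the solvent of the Wnt activator used elsewhere in the series. hBMEC-like cells were made with retinoic acid and FGF2, moved to chips coated with collagen IV and fibronectin, and sheared in medium with neither agent. Cell type, differentiation protocol and medium differ together between the models and cannot be told apart.

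Endothelial cells sense the drag of blood flow through junctional complexes, integrins, ion channels and the glycocalyx. Sustained laminar shear is known to induce the transcription factors *KLF2* and *KLF4* and to lower matrix, inflammatory and growth-associated genes in most endothelia. TGF-beta signals through SMAD proteins to raise fibronectin, collagens and contractile proteins, and YAP and TAZ, co-activators held in check by the Hippo pathway, raise *CCN1* and *CCN2*. Cell division genes are switched on in waves, replication genes by E2F factors before S phase and mitosis genes through CHR and CCAAT elements in G2 phase.

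The libraries held 26297516 to 38604498 counted reads in hBMEC-like cells and 25269733 to 47006272 in hECs. The labelled cell types were checked against fixed markers, given as CPM, the counts per 1000000 reads. The summed level of 8 endothelial markers was 58.1 to 80.9 CPM in hBMEC-like cells, where *PECAM1* stayed at or below 0.212 CPM, against 10737 to 14885 CPM in hECs. The summed level of 8 epithelial markers was 8607 CPM or higher in all 6 hBMEC-like libraries and 108 to 369 CPM in the 6 hEC libraries. The hBMEC-like libraries thus carried epithelial markers at far higher levels than endothelial ones. In hECs the epithelial sum was 108 to 182 CPM at high shear and 178 to 369 CPM at low shear, and the low shear library of replicate 2 stood apart with 178 CPM of *KRT7*, against at most 0.646 CPM in the other 5. *MYH11*, a marker of mature smooth muscle, was at 0 in all 12 libraries. The summed level of the 6 smooth muscle and pericyte markers, *MYH11* among them, was still 436 to 814 CPM in hBMEC-like cells and 370 to 607 CPM in hECs. Of these, *RGS5* had 224 to 570 CPM and *TAGLN* 3.83 to 268 CPM over the 12 libraries.

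Promoter sequences are shown first for 4 genes that fell in hBMEC-like cells and rose in hECs, because the cell division genes described below share short elements in this window. They run 5′ to 3′ over the 150 bases before the RefSeq transcription start (build GRCh38.p14), with element letters in capitals, and the genes were chosen after their values were seen. *CCNB2* encodes a mitotic cyclin (chr15:59104996-59105145, + strand), *CDC20* an activator of the anaphase-promoting complex (chr1:43358831-43358980, + strand), *KIF15* a spindle kinesin (chr3:44761644-44761793, + strand) and *CDT1* a licensing factor for replication origins (chr16:88803639-88803788, + strand). Capitals mark the CHR letters TTTGAA and CCAAT in *CCNB2* and *CDC20*, a reversed E2F match running into a reversed CHR match in *KIF15*, and a reversed E2F match in *CDT1*.
CCNB2: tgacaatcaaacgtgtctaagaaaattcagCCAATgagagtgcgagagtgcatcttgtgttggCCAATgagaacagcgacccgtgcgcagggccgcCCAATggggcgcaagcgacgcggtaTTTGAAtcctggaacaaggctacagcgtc
CDC20: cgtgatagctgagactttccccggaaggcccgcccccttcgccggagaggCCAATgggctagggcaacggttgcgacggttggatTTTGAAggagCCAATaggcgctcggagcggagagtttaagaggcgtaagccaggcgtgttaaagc
KIF15: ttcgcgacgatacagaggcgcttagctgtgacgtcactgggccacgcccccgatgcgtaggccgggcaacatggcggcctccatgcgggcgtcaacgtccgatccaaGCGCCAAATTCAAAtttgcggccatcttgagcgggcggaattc
CDT1: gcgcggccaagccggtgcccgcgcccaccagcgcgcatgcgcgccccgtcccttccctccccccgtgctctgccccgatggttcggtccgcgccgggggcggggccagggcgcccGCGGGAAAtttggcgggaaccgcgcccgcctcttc

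The interaction was called for 2439 genes. The shear change was higher in hBMEC-like cells for 1429 (7.96% of genes tested) and lower for 1010 (5.63%). When each model was tested on its own, 1349 genes rose (8.20%) and 1114 fell (6.77%) in hBMEC-like cells, and 1219 rose (7.87%) and 1275 fell (8.23%) in hECs. Most interaction calls were not opposite responses, since 1196 genes were called in hECs alone, 384 in hBMEC-like cells alone, 86 in both models with the same direction and 384 in neither. Of the 629 genes that were called in both models' own fits, 389 went opposite ways, 151 rose in both and 89 fell in both.

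The 261 genes that rose in hBMEC-like cells and fell in hECs were 1.45% of genes tested, and the 128 of the reverse direction were 0.713%. A looser class, in which only the interaction had to be called and the signs had to differ, held 1027 genes (5.72%) and 696 genes (3.88%). Both counts rest on pairing the high and low shear libraries of a replicate. Without that pairing 2 genes and 0 genes went opposite ways (159 of the 261 and 75 of the 128 met all 3 conditions at an unadjusted p under 0.05), because in the edgeR fit of hBMEC-like cells alone only 7 genes rose and 0 fell (1200 and 1001 at an unadjusted p under 0.05). The interaction itself was still called in the unpaired fit for 173 of the 261 and 103 of the 128 genes. The counts also depended on replicate 1 of the hECs, without which they were 117 and 53.

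The size of the response was unequal. Median log2 changes of the 261 genes were 0.29 in hBMEC-like cells and −0.84 in hECs, and those of the 128 genes were −0.24 in hBMEC-like cells and 0.88 in hECs. The change was larger in hECs for 240 of the 261 and 125 of the 128 genes. More than a 2-fold change in hBMEC-like cells was found for 4 of the 261 and 1 of the 128 genes, against 115 and 56 in hECs. Over all called genes the median absolute log2 change was 0.26 in hBMEC-like cells and 0.79 in hECs, and the biological coefficient of variation was 0.0589 in hBMEC-like cells and 0.135 in hECs. hBMEC-like calls therefore reached smaller changes. At least 5 CPM in each model was reached by 221 of the 261 and 112 of the 128 genes.

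**Figure D1:**
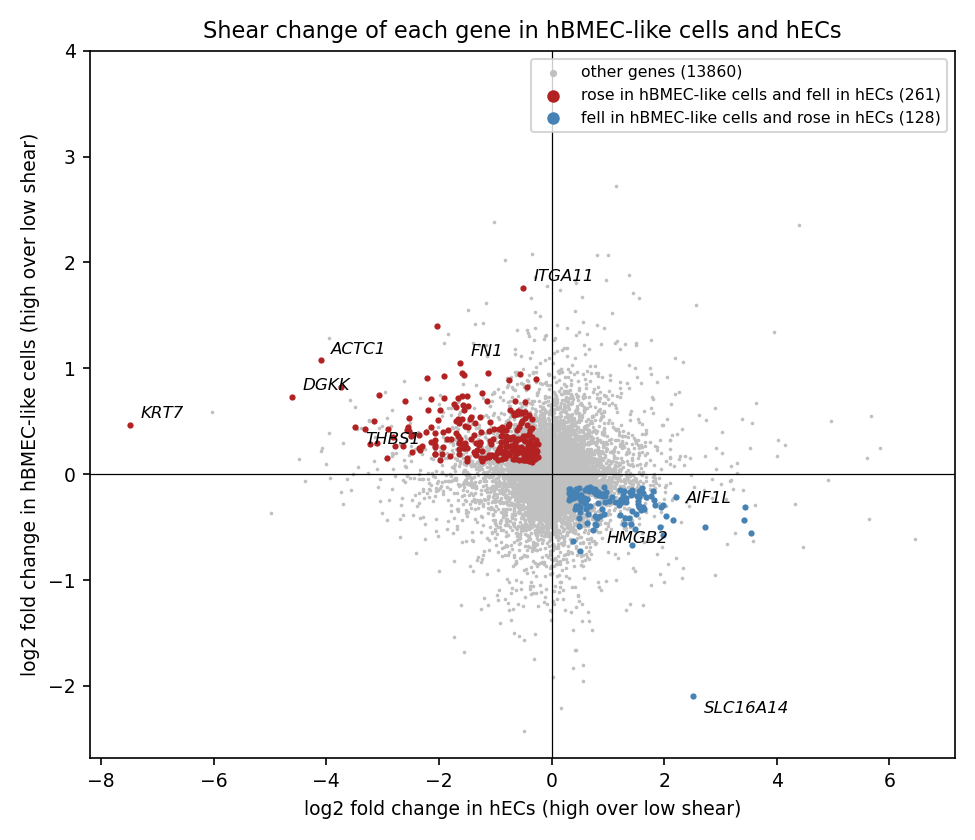
Log2 change at high over low shear for each of the 14249 genes tested in all 3 fits, with hBMEC-like cells on the vertical and hECs on the horizontal axis. The 261 red genes lie upper left and the 128 blue genes lower right, and most reach farther along the hEC axis than along the hBMEC-like axis.

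Shear changes of the models were nearly unrelated as a whole. Across the 14249 genes, Pearson's r of the log2 changes was −0.033 and Spearman's rho was −0.0095, and across the 9812 genes of at least 5 CPM in each model Pearson's r was −0.087. These are values across genes, which share the same 12 libraries, and are given as a description. Just inside the 3 thresholds stood *CADPS2*, *NOMO2* and *PABPC4L*, and just outside them *CDCA5*, *KDM4B* and *CDC25A*.

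Single libraries carried the direction well. Within all 3 pairs of each model the sign was the same for 258 of the 261 and 125 of the 128 genes. The ranges of high and low shear libraries did not overlap in hBMEC-like cells for 122 of the 261 genes and in hECs for 212, against 17.5% and 26.5% of all genes tested. For the 128 genes these numbers were 57 in hBMEC-like cells and, in hECs, 120. Of all, 96 of the 261 and 54 of the 128 genes had separate ranges in both models. These counts use the contrasts that chose the genes.

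Fibronectin led the genes that rose in hBMEC-like cells and fell in hECs. *FN1* (GRCh38.p14, chr2:215360865-215436068) encodes an adhesive glycoprotein of the matrix that is laid down in response to TGF-beta. Its levels in hBMEC-like cells were 7971, 7001 and 5089 CPM at high shear, against 3460, 3400 and 2655 CPM at low shear. In hECs they were 619, 947 and 695 CPM at high shear, against 1373, 5044 and 1736 CPM at low shear. The groups were separate in each model, and the spread was widest among low shear hECs, where replicate 2 was far above the others. The log2 change was 1.05 ± 0.04 (SE) in hBMEC-like cells and −1.62 ± 0.23 in hECs, and the interaction was 2.69 ± 0.28 (edgeR adjusted p = 2.6e-04). Without replicate 2 of the hECs the interaction was 2.30.

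Several other genes at the cell surface or in the matrix behaved like *FN1*. *SRPX2* (chrX:100644199-100675788), a secreted sushi repeat protein with roles in endothelial migration, had 22.0, 18.4 and 12.4 CPM at high shear in hBMEC-like cells, against 12.0, 9.88 and 9.32 CPM at low shear. In hECs it had 42.0, 42.6 and 19.3 CPM at high shear, against 157, 165 and 69.2 CPM at low shear. No library of one shear group reached the range of the other in either model, although replicate 3 was the lowest in each group. The log2 change was 0.72 ± 0.11 in hBMEC-like cells and −1.90 ± 0.07 in hECs. *CDH11* (chr16:64943753-65123744), a mesenchymal cadherin, rose 1.58-fold in hBMEC-like cells and fell to 0.338 of the low shear level in hECs, and *MRC2*, a collagen uptake receptor, rose 1.66-fold and fell to 0.334. *PAPPA*, a protease that frees insulin-like growth factors, rose 1.91-fold and fell to 0.268, and *MMP9*, a gelatin-degrading metalloprotease, rose 1.67-fold and fell to 0.352.

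The transcription factor *RUNX1* (chr21:34787801-35049302), which drives blood formation from hemogenic endothelium, showed the same opposition. Its levels in hBMEC-like cells were 28.0, 22.8 and 15.2 CPM at high shear, against 14.3, 12.8 and 11.9 CPM at low shear. In hECs they were 6.87, 10.2 and 2.88 CPM at high shear, against 28.6, 49.4 and 11.9 CPM at low shear. At low shear the ranges of the models overlapped, and at high shear every hBMEC-like library lay above every hEC library. The interaction was 2.85 ± 0.18 (edgeR adjusted p = 2.2e-05). *PITX1*, a homeobox factor of limb and pituitary development, rose 1.94-fold in hBMEC-like cells and fell to 0.457 in hECs, where its groups overlapped.

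*DGKK* (chrX:50365409-50470825), a diacylglycerol kinase, had the largest interaction among genes of this direction that the rule on level and pairs named. It had 9.21, 10.2 and 6.89 CPM at high shear in hBMEC-like cells, against 4.68, 6.16 and 4.79 CPM at low shear. The hEC values were 0.742, 0.761 and 0.125 CPM at high shear, against 16.2, 19.9 and 3.43 CPM at low shear. The gene was thus nearly silent in sheared hECs, and its interaction was 5.35 ± 0.24 (edgeR adjusted p = 5.8e-06). *SAMD5*, a sterile alpha motif protein, rose 1.70-fold in hBMEC-like cells and fell to 0.425 in hECs. *LPL*, the lipase that clears triglyceride from blood lipoproteins, rose 1.85-fold and fell to 0.591, with levels of at most 19.1 CPM in hBMEC-like cells and at least 416 CPM in hECs. *CHAC1*, a glutathione-degrading enzyme of the ATF4 stress response, rose 1.61-fold and fell to 0.454. In *SAMD5* and *LPL* the shear groups of hBMEC-like cells overlapped between replicates although each pair moved the same way.

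*TFPI2* (chr7:93885396-93890753), a matrix-bound inhibitor of plasmin and other serine proteases, was among the 4 genes with the smallest interaction p in this direction. It had 46.6, 47.1 and 32.1 CPM at high shear in hBMEC-like cells, against 31.5, 35.6 and 26.1 CPM at low shear. Levels in hECs were 11.01, 13.8 and 8.95 CPM at high shear, against 58.8, 97.4 and 49.3 CPM at low shear. The hBMEC-like groups overlapped through replicate 3, and the hEC groups were far apart. The interaction was 3.00 ± 0.13 (edgeR adjusted p = 5.4e-06). *LTBP4*, which binds latent TGF-beta, and *PDE3A*, a cyclic nucleotide phosphodiesterase, also had small p-values, but through hECs alone, since their hBMEC-like changes of −0.04 ± 0.07 and 0.13 ± 0.08 did not pass the test.

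**Figure D2:**
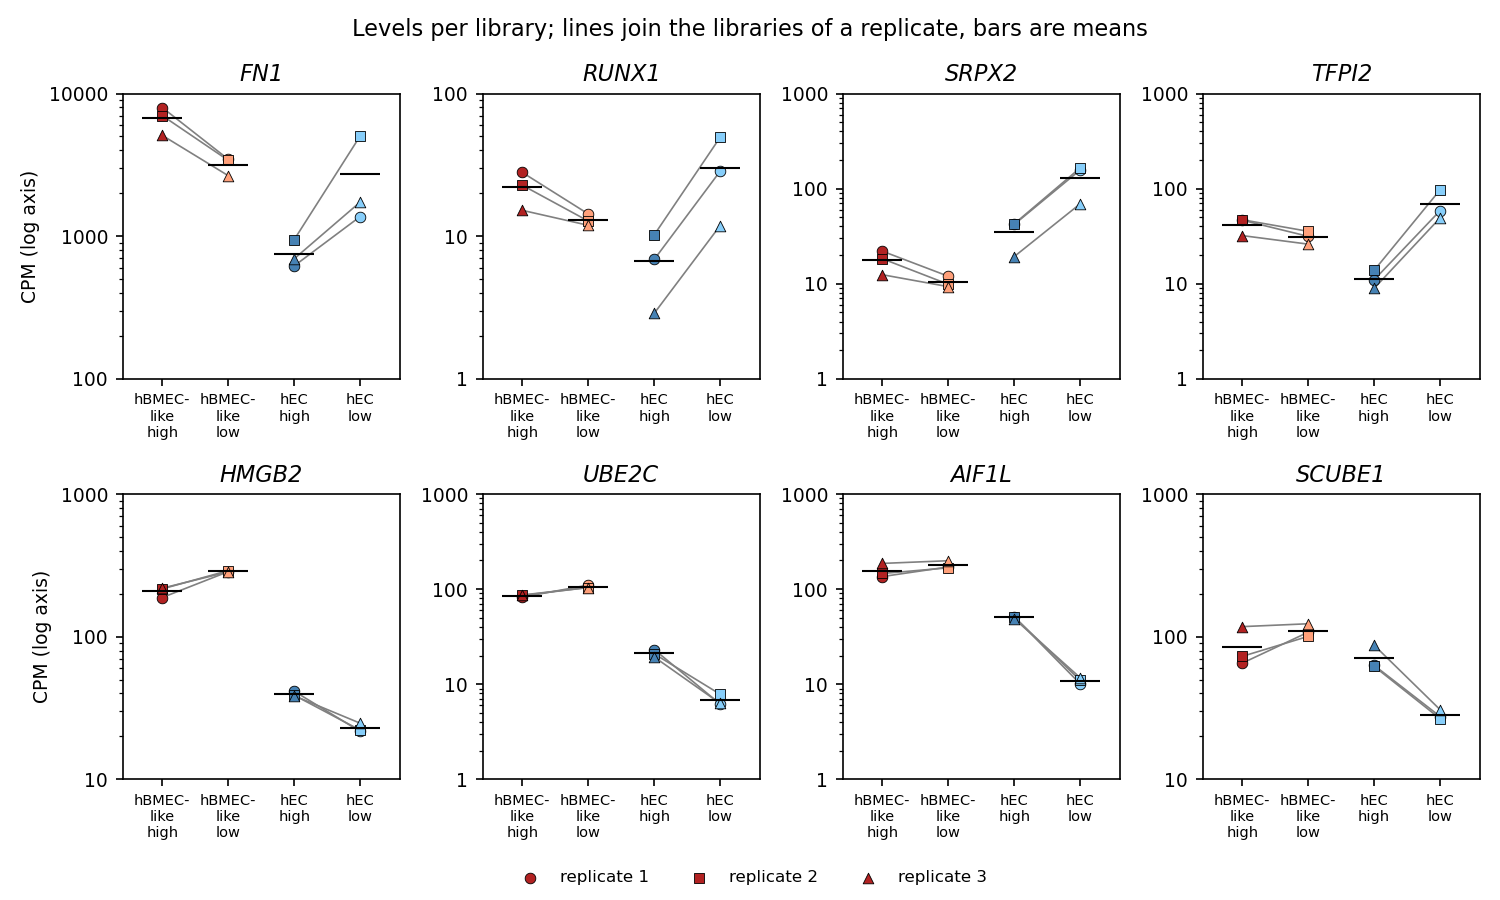
CPM of 8 genes in each library on a log axis, with high shear left of low shear for hBMEC-like cells and then hECs, and lines joining the libraries of a replicate. *FN1*, *RUNX1*, *SRPX2* and *TFPI2* rose in hBMEC-like cells and fell in hECs, and *HMGB2*, *UBE2C*, *AIF1L* and *SCUBE1* did the reverse in every pair.

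In the reverse direction *HMGB2* (chr4:173331376-173334358), a chromatin protein of dividing cells, was the clearest case. It had 188, 216 and 219 CPM at high shear in hBMEC-like cells, against 286, 290.4 and 284 CPM at low shear. hEC libraries had 41.5, 38.9 and 38.5 CPM at high shear, against 21.7, 22.1 and 24.7 CPM at low shear. Replicates lay close together and no groups overlapped. The log2 change was −0.48 ± 0.04 in hBMEC-like cells and 0.79 ± 0.09 in hECs, and the interaction was −1.26 ± 0.10 (edgeR adjusted p = 7.0e-05). *HMGN5*, another chromatin protein, fell to 0.750 of its low shear level in hBMEC-like cells and rose 1.75-fold in hECs.

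Signaling genes of this direction differed more in size. *GUCY1A2* (chr11:106674019-107018476), a subunit of the soluble guanylate cyclase that nitric oxide activates, had 76.6, 86.2 and 102 CPM at high shear in hBMEC-like cells, against 117, 120.2 and 134 CPM at low shear. Its hEC levels were 8.31, 12.3 and 15.3 CPM at high shear, against 1.50, 2.73 and 6.42 CPM at low shear. The log2 change was −0.50 ± 0.05 in hBMEC-like cells and 1.92 ± 0.25 in hECs, with no overlap of groups in either model. *SCUBE1* (chr22:43197280-43343372), a secreted EGF-repeat protein of endothelium and platelets, had 65.2, 72.8 and 118 CPM at high shear in hBMEC-like cells, against 108, 100.5 and 123 CPM at low shear. In hECs the gene had 63.0, 61.9 and 87.1 CPM at high shear, against 27.6, 26.6 and 30.8 CPM at low shear. Its hBMEC-like groups overlapped and its hEC groups did not, and the ranges of the models overlapped at high shear.

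*AIF1L* (chr9:131096531-131123144), an actin-binding protein, had one of the 4 smallest p-values among genes with a lower change in hBMEC-like cells. It had 135, 146 and 186 CPM at high shear in hBMEC-like cells, against 171, 167 and 199 CPM at low shear. In hECs it had 51.3, 51.1 and 48.9 CPM at high shear, against 10.1, 11 and 11.7 CPM at low shear. The fall to 0.862 of the low shear level in hBMEC-like cells was small beside the 4.61-fold rise in hECs. The other 3 genes with the smallest p did not go opposite ways by the 3 tests. *L1TD1*, an RNA-binding protein of pluripotent cells, rose 29.9-fold in hECs, *VWA1*, a matrix protein, 7.59-fold, and *EFNB1*, a ligand of Eph receptors, 8.07-fold, while their log2 changes in hBMEC-like cells were −0.05, 0.05 and −0.09.

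Other named genes that fell in hBMEC-like cells and rose in hECs had smaller or less even changes. *ARHGAP6*, a GTPase-activating protein for RhoA, fell to 0.740 in hBMEC-like cells and rose 4.46-fold in hECs. *NEURL1B*, a ubiquitin ligase that acts on Notch ligands, fell to 0.699 and rose 2.80-fold. *CPT1A*, which brings fatty acids to mitochondria for oxidation, fell to 0.720 and rose 1.71-fold, and *SLC8B1*, the mitochondrial sodium-calcium exchanger, fell to 0.727 and rose 1.55-fold. *GPR162*, *WDR54* and the pseudogene *MTMR9LP* fell to between 0.695 and 0.751 and rose 1.40-fold to 1.67-fold, and *FLJ30901* fell to 0.720 and rose 2.44-fold. The largest fall in hBMEC-like cells belonged to *SLC16A14*, a monocarboxylate transporter family member named after its values were seen, with 0.318, 0.356 and 0.299 CPM at high shear, against 1.99, 1.27 and 1.07 CPM at low shear. The hEC values were 5.74, 4.19 and 12.0 CPM at high shear, against 1.67, 1.19 and 0.732 CPM at low shear.

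Not all of these calls held when a pair was left out. *FN1*, *SAMD5*, *MRC2*, *DGKK*, *SRPX2*, *RUNX1*, *CDH11*, *GUCY1A2*, *HMGB2*, *FLJ30901* and *SCUBE1* kept their calls in both models' own fits in every such fit. Without replicate 1 of the hECs the hEC call was lost for *PITX1*, *PAPPA*, *LPL*, *CHAC1*, *MTMR9LP*, *HMGN5* and *WDR54*, with log2 changes of −1.15, −1.85, −0.77, −0.96, 0.74, 0.73 and 0.54 in that order. The hBMEC-like call was lost for *MMP9* without replicate 2 (log2 change 0.43), for *ARHGAP6* without replicate 1 (−0.31) or 2 (−0.36), and for *MTMR9LP* (−0.40) and *NEURL1B* (−0.46) without replicate 3. *CPT1A* and *SLC8B1* lost the hBMEC-like call, and *GPR162* the hEC call, without any single pair of that model, at log2 changes of −0.65 to −0.32, −0.49 to −0.41 and 0.33 to 0.62. With DESeq2 the hBMEC-like call was also lost for *MMP9*, *MTMR9LP*, *CPT1A*, *SLC8B1* and *SCUBE1* (DESeq2 adjusted p of 0.0631 to 0.194). The interaction stayed called for all of these genes in each such fit.

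Opposite changes moved the models apart or together according to where they began. For the 261 genes the median log2 ratio of hBMEC-like over hEC levels was 0.80 under high shear and −0.46 under low shear, and 164 genes were higher in hBMEC-like cells at high shear, against 111 at low shear. The order of the models turned over for 53 of them. The levels lay closer at high shear for 124 and further apart for 137. For the 128 genes the median log2 ratio was 1.18 at high shear and 2.26 at low shear. These genes were mostly higher in hBMEC-like cells to begin with, and in 92 of 128 the levels lay closer together at high shear.

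Gene groups were described by their counts and medians beside all genes tested, where the median log2 change was −0.0041 in hBMEC-like cells and 0.00015 in hECs. Any of 41 lists held 64 of the 261 and 26 of the 128 genes, so most opposite genes belong to none of them. As these lists were drawn up with earlier results of the series known, no test was made of them. Each 0 given below for a list in the interaction or in a model's own edgeR fit was also 0 at an unadjusted p under 0.05 and with DESeq2 and limma voom, except that at that unadjusted p 2 shear-repressed genes rose in hECs and 1 YAP and TAZ target fell in hBMEC-like cells.

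**Figure D3:**
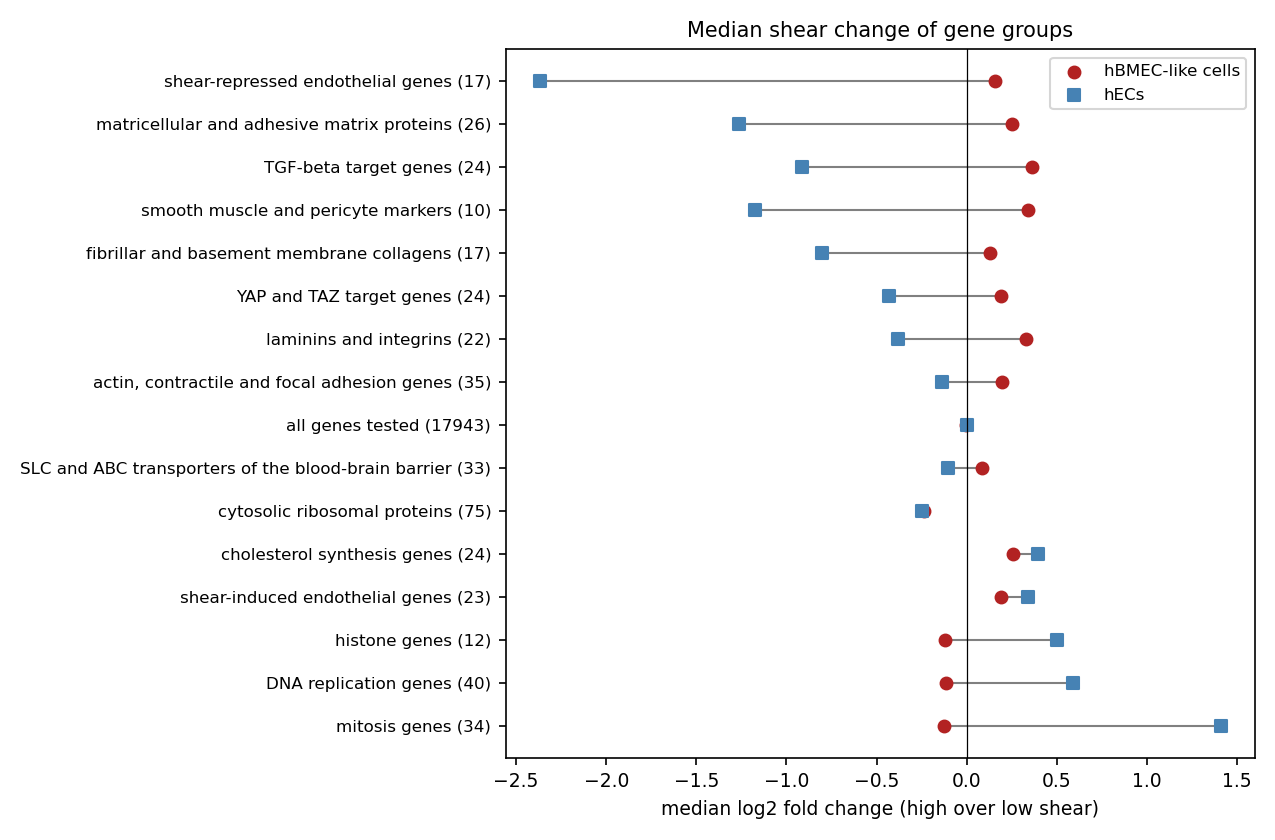
Median log2 change at high over low shear in hBMEC-like cells (red circles) and hECs (blue squares) for 15 gene groups and for all genes tested, with the number of genes in parentheses. Matrix and TGF-beta groups lie right of 0 in hBMEC-like cells and left of 0 in hECs, cell division groups lie on the reverse sides, and ribosomal and cholesterol groups lie on 1 side in both.

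Cell division genes made up the most uniform group. Of 34 mitosis genes, 31 had a lower shear change in hBMEC-like cells than in hECs and 0 a higher one, beside 5.63% and 7.96% of all genes. In each model's own fit 15 fell and 0 rose in hBMEC-like cells, and 32 rose and 0 fell in hECs. The 14 that went opposite ways were *AURKB*, *BIRC5*, *CCNA2*, *CCNB2*, *CDC20*, *CDCA8*, *CDK1*, *CENPA*, *KIF11*, *KIF2C*, *MAD2L1*, *NUSAP1*, *TOP2A* and *UBE2C*. Median log2 changes of the list were −0.13 in hBMEC-like cells and 1.41 for the hECs. In bulk samples, fewer cells in division and less of these RNAs per dividing cell cannot be told apart.

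*UBE2C* (chr20:45812644-45816952), which hands ubiquitin to mitotic cyclins for their destruction, illustrates the group. It had 82.4, 86.7 and 85.8 CPM at high shear in hBMEC-like cells, against 110.2, 104 and 104 CPM at low shear. Levels in hECs were 23.2, 20.9 and 19.4 CPM at high shear, against 6.19, 7.84 and 6.28 CPM at low shear. The groups were separate in each model, and hBMEC-like cells stayed above hECs throughout. *CCNA2*, the cyclin of S and G2 phase, fell to 0.911 of its low shear level in hBMEC-like cells and rose 3.05-fold in hECs. *NUSAP1*, a spindle microtubule protein, fell to 0.883 and rose 3.07-fold, and *BIRC5*, which encodes the chromosomal passenger survivin, fell to 0.900 and rose by 1.43 on the log2 scale. *TOP2A*, the topoisomerase that untangles chromosomes, and *CDK1*, the kinase that starts mitosis, both named after their values were seen, fell to 0.895 and 0.881 in hBMEC-like cells and rose in hECs. Falls of this size did not hold throughout. The hBMEC-like call of *CCNA2* was lost with DESeq2 (adjusted p = 0.0781) and without hBMEC-like replicate 1 (log2 change −0.11) or 2 (−0.12), and that of *BIRC5* with DESeq2 (adjusted p = 0.0513) and without replicate 2 (−0.12). With DESeq2 10 mitosis genes fell in hBMEC-like cells, in place of 15.

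Per library, the mean log2(CPM + 1) of the mitosis genes was 6.68 to 6.79 at high shear and 6.84 to 6.87 at low shear in hBMEC-like cells. In hECs it was 4.76 to 5.08 at high shear and 3.61 to 3.84 at low shear. The groups did not overlap in either model, and high shear hECs stayed below all hBMEC-like libraries. Of 8 pluripotency markers 1 rose and 2 fell in hBMEC-like cells, and 3 rose and 1 fell in hECs. Their mean log2(CPM + 1) was 5.38 to 5.49 at high shear and 5.29 to 5.52 at low shear in hBMEC-like cells, where the ranges overlapped. In hECs it was 3.00 to 3.20 at high shear and 2.09 to 2.45 at low shear. The summed level of 3 defining pluripotency markers did not rise with it in hECs. That sum was 6.60 to 13.2 CPM at high shear and 7.58 to 15.4 CPM at low shear, and *POU5F1* was at 0 in all 6 hEC libraries. In hBMEC-like cells the sum was 416 to 481 CPM at high shear and 527 to 546 CPM at low shear. Nearly all of it was *LIN28A*, with 408 to 473 CPM at high shear and 521 to 539 CPM at low shear. *POU5F1* did not exceed 0.071 CPM in hBMEC-like cells. *NANOG* had 6.30 to 8.37 CPM in hBMEC-like cells and 6.52 to 13.9 CPM in hECs. The part of pluripotent cells in the result was not tested.

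Replication genes moved the same way with a smaller difference. Of 40 DNA replication genes, 19 had a lower shear change in hBMEC-like cells and 0 a higher one. In the models' own fits 16 fell and 0 rose in hBMEC-like cells, and 17 rose and 0 fell in hECs. *CDT1*, *LIG1*, *MCM2*, *MCM6*, *MCM7* and *PRIM1* were among those that went opposite ways. *LIG1*, the ligase that joins Okazaki fragments, fell to 0.853 in hBMEC-like cells and rose 1.42-fold in hECs, and *MCM2*, a subunit of the replicative helicase, fell to 0.905 and rose 1.66-fold. Without replicate 1 of the hECs both lost the hEC call, at log2 changes of 0.48 and 0.70, and *MCM2* lost the hBMEC-like call without replicate 1 or 2 of those cells, at −0.12 in each fit. *TYMS*, the thymidylate synthase, rose 2.15-fold in hECs, and its hBMEC-like log2 change of −0.11 ± 0.06 did not pass the test. The number of calls in this group depended on most of the pairs. The low shear library of hEC replicate 2 had a mean log2(CPM + 1) of 4.35 against 3.88 in both others. Without that replicate 36 of the 40 genes were called. Without replicate 1, 2 or 3 of the hBMEC-like cells 8, 10 or 11 were called, and without replicate 1 of the hECs 12.

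*E2F1*, a transcription factor of the replication genes that was named after its values were seen, itself went opposite ways, at 0.852 of its low shear level in hBMEC-like cells and 2.34-fold higher in hECs. Among 12 histone genes 4 had a lower change in hBMEC-like cells. *H1FX*, *H2AFX* and *H2AFZ*, which encode variant histones with polyadenylated messages, fell to between 0.805 and 0.916 in hBMEC-like cells and rose 1.35-fold to 1.55-fold in hECs. *H2AFX* lost the hBMEC-like call without replicate 2 (−0.12 on the log2 scale) or 3 (−0.11), and *H2AFZ* lost it without replicate 2 (−0.11) and the hEC call without replicate 1 of the hECs (0.47). Histone and *HMGB2* reads could be split with near-identical copies and are uncertain to that extent.

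**Figure D4:**
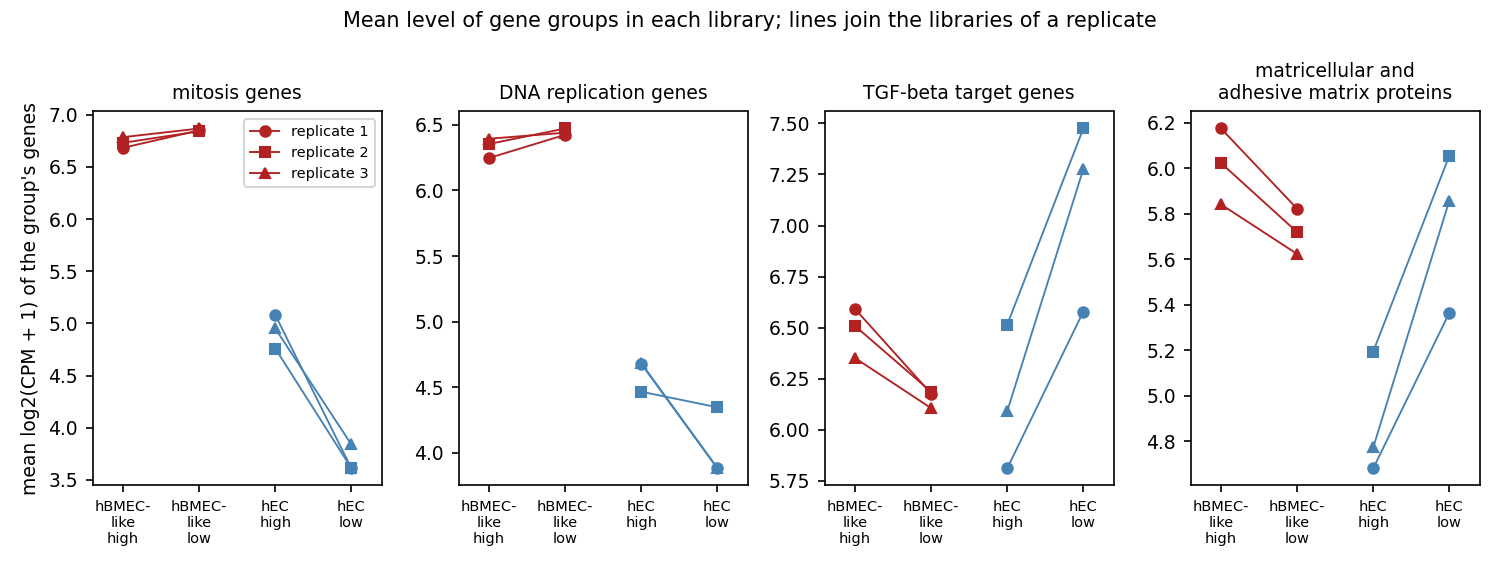
Mean log2(CPM + 1) over the genes of 4 groups in each library, with high shear left of low shear and lines joining the libraries of a replicate. All 3 hBMEC-like lines (red) slope the other way from all 3 hEC lines (blue) in each panel, and the panels have their own vertical scales.

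The promoter elements printed above were counted in the RefSeq windows of 250 bases before to 50 bases after the start, on both strands. A window was found for 96 of the 128 genes that fell in hBMEC-like cells and rose in hECs, 207 of the 261 of the reverse direction, and 13102 genes tested. The CHR letters TTTGAA stood in 33.3% of the 96 windows, 11.6% of the 207 and 10.3% of the 13102. CCAAT stood in 54.2%, 31.4% and 35.9%. E2F letters (TTTGGCGC, TTTCCCGC, TTTGCCGC or TTTCGCGC) stood in 14.6%, 0.97% and 5.0%. The mitosis list had CHR letters in 75.0% of 28 windows and the replication list E2F letters in 51.5% of 33 windows. Of the 128 genes, 14 are on the mitosis list and 7 on the replication list. In the 207 windows AP-1 letters (TGANTCA) stood in 6.76%, the CArG box in 1.93%, TATAAA in 6.28% and GTCTAGAC, a SMAD palindrome, in 0%, against 5.0%, 1.14%, 6.54% and 0.19% of the 13102. Matches of different elements may share letters. A match of letters is a description of the window and not evidence of binding.

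TGF-beta target genes went the reverse way. Of 24 tested, 15 had a higher shear change in hBMEC-like cells than in hECs and 1 a lower one, beside 7.96% and 5.63% of all genes. In the own fits 14 rose and 0 fell in hBMEC-like cells, and 1 rose and 13 fell in hECs. *CCN2*, *COL1A1*, *COL1A2*, *FN1*, *LTBP2*, *POSTN*, *TAGLN* and *THBS1* went opposite ways. Median log2 changes were 0.36 in hBMEC-like cells and −0.91 in hECs. Per library, the mean log2(CPM + 1) of the list was 6.35 to 6.59 at high shear and 6.11 to 6.19 at low shear in hBMEC-like cells, and 5.81 to 6.51 at high shear and 6.58 to 7.48 at low shear in hECs.

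*THBS1* (chr15:39581079-39599466), thrombospondin 1, a matrix protein that activates latent TGF-beta and holds back vessel growth, had the smallest interaction p of that list. It had 87.5, 81.4 and 54.0 CPM at high shear in hBMEC-like cells, against 63.5, 57.2 and 41.1 CPM at low shear. hEC libraries had 41.7, 66.4 and 30.1 CPM at high shear, against 345, 733 and 465 CPM at low shear. The hEC groups were far apart, and the hBMEC-like groups overlapped through replicate 3. The interaction was 3.94 ± 0.19 (edgeR adjusted p = 6.6e-06). *CCN2* (chr6:131948176-131951372), a matricellular protein induced by both TGF-beta and YAP, had 153, 147 and 109 CPM at high shear in hBMEC-like cells, against 106, 97.1 and 100.3 CPM at low shear. Its hEC levels were 13.4, 20.98 and 12.4 CPM at high shear, against 57.9, 91.0 and 130.0 CPM at low shear. The hBMEC-like call of *CCN2* was lost with DESeq2 (adjusted p = 0.0585). *COL1A2*, a chain of type I collagen, rose 1.42-fold in hBMEC-like cells and fell to 0.310 in hECs, where the groups overlapped.

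The ligand gene *TGFB1* was also opposite. It had 37.6, 39.1 and 34.9 CPM at high shear in hBMEC-like cells, against 26.8, 24.9 and 22.3 CPM at low shear. In hECs the gene had 529, 566 and 394 CPM at high shear, against 880.0, 877 and 459.5 CPM at low shear. Its hBMEC-like groups were separate and its hEC groups overlapped through replicate 3. Without replicate 1 of the hECs its hEC log2 change of −0.43 was not called (edgeR adjusted p = 0.18). *INHBA*, the activin A subunit, fell to 0.0770 of its low shear level in hECs, and its hBMEC-like log2 change of −0.28 ± 0.19 did not pass the test.

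Matrix and adhesion genes mostly followed the TGF-beta targets, with which they share members. *CCN2*, *FN1*, *POSTN* and *THBS1*, and *COL1A1* and *COL1A2* of the collagens below, are TGF-beta targets already counted above. Among 26 matricellular and adhesive matrix proteins, 17 had a higher change in hBMEC-like cells and 2 a lower one, and *CCN1*, *CCN2*, *FBLN5*, *FN1*, *LUM*, *POSTN*, *THBS1* and *VCAN* went opposite ways. Model by model, 13 rose and 0 fell in hBMEC-like cells, and 4 rose and 14 fell in hECs. Median log2 changes were 0.25 in hBMEC-like cells and −1.26 in hECs. *EFEMP1*, fibulin 3, and *TNC*, tenascin C, had large interactions of 4.25 ± 0.26 and 3.09 ± 0.29 that came from hECs, as their hBMEC-like log2 changes of 0.10 and 0.14 did not pass the test. *CCN1*, a YAP-dependent relative of *CCN2*, rose 1.17-fold in hBMEC-like cells and fell to 0.197 in hECs. Its hBMEC-like call was lost with DESeq2 (adjusted p = 0.354) and without hBMEC-like replicate 1 (log2 change 0.10) or 2 (0.22), and that of *CCN2* with DESeq2.

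Collagens followed, with an exception. Of 17 collagen genes 12 had a higher change in hBMEC-like cells and 2 a lower one. *COL1A1*, *COL1A2*, *COL4A1*, *COL4A6*, *COL5A1*, *COL6A3* and *COL12A1* rose in hBMEC-like cells and fell in hECs, and *COL6A1* did the reverse. Tested within each model, 7 rose and 2 fell in hBMEC-like cells, and 2 rose and 12 fell in hECs. *COL6A1*, a chain of the microfibrillar type VI collagen, had 53.3, 53.3 and 76.2 CPM at high shear in hBMEC-like cells, against 62.1, 68.2 and 88.9 CPM at low shear. In hECs it had 184, 242 and 234 CPM at high shear, against 108, 164 and 169.9 CPM at low shear. *COL12A1*, which links fibrils, rose 1.41-fold in hBMEC-like cells and fell to 0.112 in hECs. *COL4A6*, a basement membrane chain, rose 1.09-fold and fell to 0.425. It lost the hBMEC-like call without replicate 2 or 3 of those cells, at 0.12 on the log2 scale in each fit, and *COL6A1* lost the hEC call without replicate 1 of the hECs (0.51). Without replicate 1 of the hBMEC-like cells, 8 collagens had a higher change and the median interaction was 0.52 in place of 1.17.

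Of 22 laminins and integrins 10 had a higher change in hBMEC-like cells and 2 a lower one. *ITGA5*, *ITGAV*, *ITGB8*, *LAMA5*, *LAMB1* and *LAMC1* went opposite ways. In the own fits 15 rose and 0 fell in hBMEC-like cells, while 4 rose and 6 fell in hECs. *ITGA5*, the fibronectin receptor subunit, had 67.0, 63.2 and 52.2 CPM at high shear in hBMEC-like cells, against 45.5, 41.8 and 43.1 CPM at low shear. The hEC values were 1848, 1934 and 1526 CPM at high shear, against 2622, 2539 and 2012 CPM at low shear. The fibronectin gene and this receptor gene thus moved together in each model, in contrary directions. *LAMB1* and *LAMA5*, laminin chains of the basement membrane, rose 1.16-fold and 1.25-fold in hBMEC-like cells and fell to 0.537 and 0.718 in hECs. *ITGA5* and *LAMA5* lost the hEC call without replicate 1 of the hECs, at log2 changes of −0.40 and −0.42. *ITGA6*, a laminin receptor subunit, rose 3.00-fold in hECs, with a hBMEC-like log2 change of 0.06 ± 0.05 that did not pass the test. *ITGA11*, a collagen receptor subunit named after its values were seen, had the largest rise in hBMEC-like cells of the 261 genes, to 2.90, 3.53 and 3.68 CPM at high shear, against 1.23, 0.540 and 1.24 CPM at low shear, while in hECs it fell to 0.708.

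Contractile genes and YAP targets included further opposite genes. Of 35 actin, contractile and focal adhesion genes 18 had a higher change in hBMEC-like cells and 0 a lower one, and *ACTC1*, *ACTN1*, *CALD1*, *CNN1*, *FLNC*, *MYH9*, *MYL9*, *TAGLN*, *TPM1*, *TPM2*, *VCL* and *ZYX* went opposite ways. Model by model, 24 rose and 1 fell in hBMEC-like cells, and 0 rose and 14 fell in hECs. *TAGLN* (chr11:117199294-117207465), the smooth muscle actin-binding protein transgelin, had 268, 254 and 191 CPM at high shear in hBMEC-like cells, against 171, 189.6 and 156 CPM at low shear. Levels in hECs were 3.83, 15.8 and 5.70 CPM at high shear, against 21.3, 54.3 and 62.2 CPM at low shear. *MYL9*, the regulatory myosin light chain, rose 1.31-fold in hBMEC-like cells and fell to 0.310 in hECs. *CALD1*, caldesmon, rose 1.20-fold and fell to 0.640, and *TPM2*, a tropomyosin, rose 1.11-fold and fell to 0.443. The hBMEC-like call of *TPM2* was lost with DESeq2 (adjusted p = 0.133), with library totals alone, with no filter on low counts, and without hBMEC-like replicate 2 (log2 change 0.19) or 3 (0.082). *ACTC1*, cardiac actin, had 78.3, 62.4 and 65.4 CPM at high shear in hBMEC-like cells, against 33.5, 30.6 and 32.5 CPM at low shear, and did not exceed 1.04 CPM in any hEC library, where its call was lost without replicate 1 (−3.78 on the log2 scale).

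Of 24 YAP and TAZ target genes 11 had a higher change in hBMEC-like cells and 2 a lower one. *ANKRD1*, *AXL*, *CCN1*, *CCN2*, *CRIM1* and *TEAD1* went opposite ways. Tested within each model, 10 rose and 0 fell in hBMEC-like cells, and 3 rose and 11 fell in hECs. *CRIM1*, a membrane protein that binds BMP ligands, had 188, 184 and 118 CPM at high shear in hBMEC-like cells, against 139, 154 and 99.9 CPM at low shear. hEC libraries had 393, 374 and 224 CPM at high shear, against 1129, 968 and 745 CPM at low shear. *AXL*, a receptor tyrosine kinase, rose 1.25-fold in hBMEC-like cells and fell to 0.239 in hECs.

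Markers of other cell types moved with these matrix and contractile groups. Of 10 smooth muscle and pericyte markers 8 had a higher change in hBMEC-like cells and 0 a lower one, and 5 of them (*CALD1*, *CNN1*, *MYL9*, *TAGLN* and *TPM2*) are contractile genes counted above. In the own fits 7 rose and 1 fell in hBMEC-like cells, and 0 rose and 7 fell in hECs. Their mean log2(CPM + 1) was 5.90 to 6.06 at high shear and 5.64 to 5.87 at low shear in hBMEC-like cells, and 3.46 to 4.01 at high shear and 4.34 to 5.04 at low shear in hECs. The groups were separate in each model, and the mean was lower at high shear in all 3 hEC pairs. The summed level of 6 defining smooth muscle and pericyte markers was 584 to 814 CPM at high shear and 436 to 570 CPM at low shear in hBMEC-like cells, and 370.0 to 566 CPM at high shear and 525 to 607 CPM at low shear in hECs, where the ranges overlapped and *RGS5* supplied most of the sum. *KRT8* and *KRT18*, the simple epithelial keratins, rose 1.12-fold and 1.10-fold in hBMEC-like cells and fell to 0.285 and 0.541 in hECs, where the call of *KRT8* was lost without replicate 1 (−2.02 on the log2 scale). *KRT7* counted as opposite only through the low shear hEC library of replicate 2, without which its hEC log2 change was −1.19 (edgeR adjusted p = 0.387). Without replicate 2 of the hECs, 17 TGF-beta targets and 17 matricellular genes had a higher change in hBMEC-like cells. The low shear hEC mean of the smooth muscle and pericyte markers was highest in replicate 3 (5.04, against 4.85 in replicate 2). The median interaction of TGF-beta targets was 1.13, with 1.46 without hEC replicate 2 and 0.91 without hEC replicate 3. For the smooth muscle and pericyte markers these medians were 1.28, 1.62 and 1.04. The part of such cells in the hEC results was not tested.

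Genes known to be induced by shear in endothelium were set beside all genes tested. Of 23 shear-induced genes 2 had a higher and 9 a lower change in hBMEC-like cells, beside 7.96% and 5.63% of all genes. Of the 23, 0 met the 3 conditions (1 at unadjusted p under 0.05, 0 with DESeq2 or limma voom). As only 1.45% and 0.713% of all genes tested went opposite ways, a count of 0 in so short a list is near that share. Model by model, 7 rose and 1 fell in hBMEC-like cells, and 13 rose and 1 fell in hECs. *PODXL*, a sialomucin of the endothelial surface, rose 1.25-fold in hBMEC-like cells and 3.78-fold in hECs, and *SLCO2A1*, the prostaglandin carrier, rose 1.43-fold and 6.69-fold. *NQO1*, a quinone reductase of the NRF2 response, rose 1.48-fold and 2.64-fold. *KLF4* rose 2.28-fold in hECs, where it had 83.6, 103 and 106 CPM at high shear against 46.5, 43.7 and 37.9 CPM at low shear, and its hBMEC-like log2 change was 0.04 ± 0.10. *KLF2* did not exceed 1.57 CPM in hBMEC-like cells, where it had 1.34, 0.593 and 1.57 CPM at high shear, against 0.163, 0.286 and 0.0727 CPM at low shear. Its hEC levels were 671, 755 and 727 CPM at high shear, against 364, 338 and 278 CPM at low shear. The interaction of *KLF2* was 1.68 ± 0.51 and did not pass the test (edgeR adjusted p = 0.059), although the hBMEC-like change of 2.72 ± 0.60 did in the own fit (edgeR adjusted p = 0.0021). The interaction was called with no filter on low counts (1.68), without hBMEC-like replicate 2 (2.48) and without hEC replicate 3 (1.81), and was 0.97 without hBMEC-like replicate 3, where the hBMEC-like call was lost as well.

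Of 17 shear-repressed endothelial genes 10 had a higher change in hBMEC-like cells and 0 a lower one. The median log2 change was 0.16 in hBMEC-like cells and −2.37 for the hECs. Tested within each model, 10 fell and 0 rose in hECs, while 0 fell and 4 rose in hBMEC-like cells, 3 of which (*CCN1*, *CCN2* and *THBS1*) went opposite ways. Those 3 genes are also counted among the TGF-beta targets or matricellular proteins above.

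Among signaling lists, 9 of 17 VEGF, angiopoietin and apelin genes had a higher and 3 a lower change in hBMEC-like cells, 7 and 1 of 19 Notch genes, and 8 and 2 of 24 Wnt genes. In the hEC fit 9, 11 and 7 genes of these lists fell and 2, 1 and 3 rose, and in the hBMEC-like fit 3, 2 and 4 rose and 2, 1 and 1 fell. *KDR*, *NRP1*, *JAG1*, *WNT5A* and *WNT5B* were their opposite genes. *WNT5A*, a ligand of non-canonical Wnt signaling, had 49.8, 48.6 and 48.9 CPM at high shear in hBMEC-like cells, against 35.8, 30.6 and 35.1 CPM at low shear. In hECs the gene had 17.5, 20.5 and 9.36 CPM at high shear, against 90.5, 92.5 and 80.8 CPM at low shear. *NRP1*, a co-receptor of VEGF and semaphorins, rose 1.25-fold in hBMEC-like cells and fell to 0.467 in hECs. *KDR*, the main VEGF receptor, fell to 0.696 in hECs, where it stood at 3294 to 5205 CPM, and its 1.49-fold rise in hBMEC-like cells concerned levels of 2.37 to 8.58 CPM. That rise was not called with DESeq2 (adjusted p = 0.062) or without hBMEC-like replicate 1 (0.46 on the log2 scale) or 2 (0.60), and the fall in hECs was not called without replicate 1 of the hECs (−0.56). *JAG1*, a Notch ligand, rose 1.42-fold in hBMEC-like cells and fell to 0.699 in hECs.

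Of 33 SLC and ABC transporters of the blood-brain barrier 14 had a higher change in hBMEC-like cells and 5 a lower one. In the own fits 12 rose and 1 fell in hBMEC-like cells, and 6 rose and 13 fell in hECs. The amino acid carriers *SLC1A4*, *SLC7A1*, *SLC7A5* and *SLC7A11* rose in hBMEC-like cells and fell in hECs, and the nucleoside carrier *SLC29A1* did the reverse. *SLC7A5*, which carries large neutral amino acids and was named after its values were seen, had 1521, 1396 and 1119 CPM at high shear in hBMEC-like cells, against 1194, 1203 and 926 CPM at low shear. In hECs it had 3.79, 9.05 and 8.39 CPM at high shear, against 10.5, 168 and 30.0 CPM at low shear, where the library of replicate 2 again stood highest. The remaining members named by the rule differed through hECs. *SLC16A1*, a lactate carrier, fell to 0.394 in hECs and *ABCA1*, a cholesterol exporter, to 0.221, with hBMEC-like log2 changes of 0.05 and −0.21 that did not pass the test. *SLC6A6*, the taurine carrier, rose 1.23-fold in hBMEC-like cells, a call lost without replicate 2 (0.21 on the log2 scale), and 2.82-fold in hECs.

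Among 17 caveola and transcytosis genes 5 had a higher change in hBMEC-like cells and 1 a lower one. Model by model, 9 rose and 0 fell in hBMEC-like cells, and 3 rose and 4 fell in hECs. *EHD2*, which sits at the neck of caveolae, had 58.9, 54.3 and 44.3 CPM at high shear in hBMEC-like cells, against 34.5, 34.1 and 28.8 CPM at low shear. The hEC values were 354, 379.8 and 295 CPM at high shear, against 526, 502 and 395 CPM at low shear. *CAVIN1*, a coat protein of caveolae, rose 1.19-fold in hBMEC-like cells and fell to 0.670 in hECs. Without replicate 1 of the hECs the hEC calls of *EHD2* and *CAVIN1* were lost, at log2 changes of −0.42 and −0.60, and the hBMEC-like call of *CAVIN1* was lost with DESeq2 (adjusted p = 0.257) and without hBMEC-like replicate 1 (0.11). *LRP1*, an endocytic lipoprotein receptor, rose 1.36-fold in hBMEC-like cells and fell to 0.359 in hECs, where its groups overlapped.

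Not every large group differed between the models. Of 75 cytosolic ribosomal protein genes 0 had a called interaction (edgeR) in either direction, and the median log2 change was −0.23 in hBMEC-like cells and −0.25 for the hECs. Tested within each model, 73 fell in hBMEC-like cells and 6 fell in hECs. Of 24 cholesterol synthesis genes 21 rose in hBMEC-like cells and 17 rose in hECs, and 0 went opposite ways with edgeR, DESeq2 or limma voom, or at an unadjusted p under 0.05.

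The remaining 14 libraries of the series were not used to choose the genes. hCECs were the hEC progenitors treated with CHIR99021, a GSK3 inhibitor that activates Wnt signaling, and rBMECs were primary rat brain microvascular endothelial cells. In hCECs, where 2.04% of all genes rose and 1.20% fell at high shear, 246 of the 261 genes were tested, and 28 were called in the hEC direction and 3 in the hBMEC-like direction. By sign, 180 followed hECs and 66 hBMEC-like cells, with a median log2 change of −0.27. Of the 128 genes 126 were tested in hCECs, where 11 were called in the hEC direction and 0 in the hBMEC-like direction (2 at an unadjusted p under 0.05, 0 with DESeq2 and limma voom), with 90 and 36 by sign and a median of 0.27.

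Genes called in hECs shared the hEC sign in hCECs at large. Of all 1199 genes that fell in hECs and were tested in hCECs, 970 fell by sign there, 128 of them called, and of 1182 that rose in hECs 930 rose by sign, 206 of them called. The low shear hCEC library of replicate 2 stood apart as a whole. It held 9790999 counted reads, against 26834595 to 32225360 in the other hCEC libraries, and had counts for 36388 genes, against 20072 to 20519. Its mean log2(CPM + 1) over all genes tested was 4.15, against 3.48 to 3.49 in the others. It had a mean log2(CPM + 1) of 3.07 for the mitosis genes against 1.96 and 1.64 in the remaining hCEC libraries at low shear, and of 3.92 for the smooth muscle and pericyte markers against 2.87 and 2.95. Without that replicate 101 of the 261 and 49 of the 128 genes were called in hCECs in the hEC direction.

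Some members followed 1 model clearly. *SCUBE1* rose in hCECs by a log2 change of 2.36 (edgeR adjusted p = 3.2e-04) and *CPT1A* by 1.00 (edgeR adjusted p = 0.0035), as in hECs. *THBS1* changed by −1.41 (edgeR adjusted p = 0.0052) and *WNT5A* by −1.74 (edgeR adjusted p = 7.5e-04), again as in hECs. *CDH11* was the exception among the genes named by size, with a log2 change of 2.04 in hCECs (edgeR adjusted p = 3.9e-04), the direction of hBMEC-like cells. *FN1* had 0.98 in hCECs, which did not pass the test (edgeR adjusted p = 0.064).

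In rBMECs, where 0.088% of all genes rose and 0.0366% fell at an adjusted p under 0.05, 0 of the 220 and 0 of the 108 members tested were called in the edgeR fit. At an unadjusted p under 0.05, 22 of the 220 lay in the hEC and 21 in the hBMEC-like direction, and their signs split evenly, 110 to 110. For the 108 genes, 9 lay in the hEC and 30 in the hBMEC-like direction at that p, and the signs were 33 to 75, with a median log2 change of −0.27. The share of all rat genes at that unadjusted p was not counted, so these counts at unadjusted p cannot be read as agreement with either model. Of all 10765 genes of the joint test that were also tested in rats 5491 were lower at high shear. Among all genes that fell in hBMEC-like cells, 586 of the 860 tested in rats were lower there too. Among all that rose in hBMEC-like cells, 624 of 1124 were higher in rats. The split of the 108 genes is thus near that of any gene that fell in hBMEC-like cells. Mitosis genes had a median log2 change of −0.645 in rBMECs and 0.56 in hCECs, so by median the rat cells lay on the side of hBMEC-like cells and hCECs on that of hECs. Only 2 of the 34 mitosis genes were called as rising in hCECs. In hCEC replicate 2 their mean log2(CPM + 1) was lower at high shear (2.89) than at low shear (3.07). Rat genes were matched by symbol, and the models differ in species as well as in culture.

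**Figure D5:**
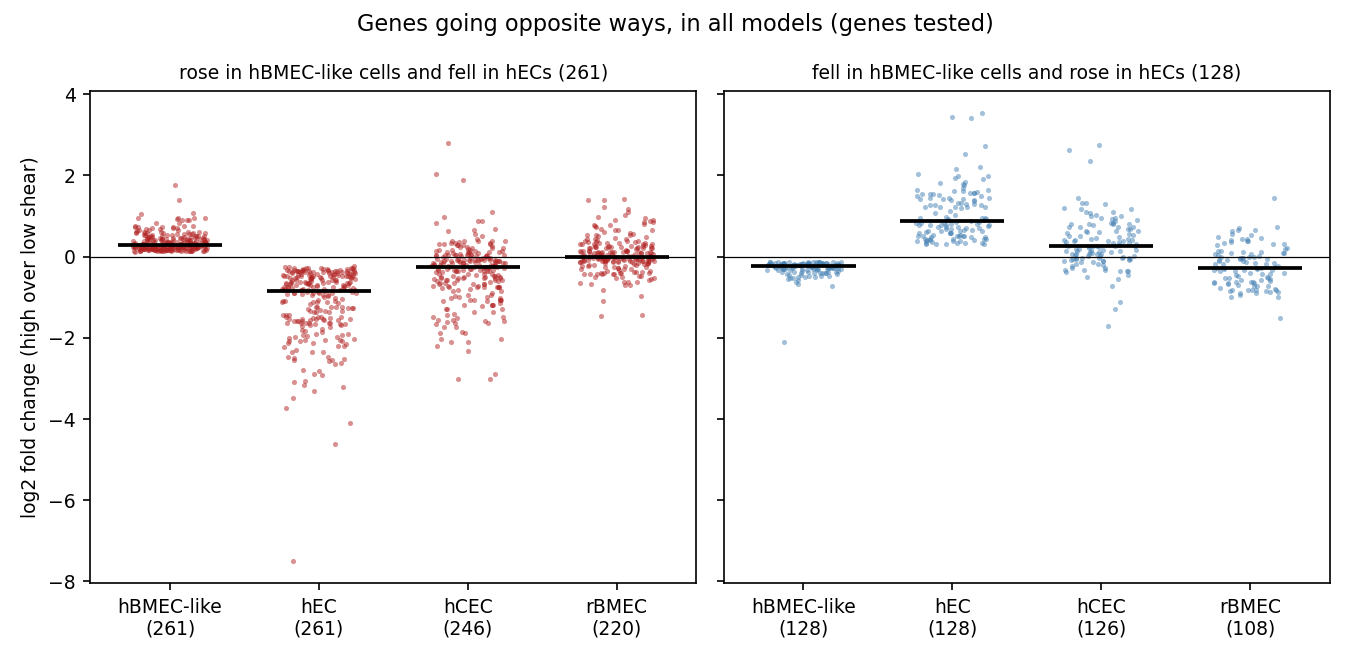
Log2 change at high over low shear of the 261 genes (left) and the 128 genes (right) in hBMEC-like cells, hECs, hCECs and rBMECs, with a bar at the median and the number tested below. The hBMEC-like and hEC columns chose the genes and are separate by construction, and in the other models medians were −0.27 and 0.00093 on the left and 0.27 and −0.27 on the right.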

How the data were processed

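Polyadenylated RNA of 26 libraries was used, 12 of them in the joint fit. The authors deposited raw read counts per gene symbol in 1 table per model. The submitters' processing notes name STAR, featureCounts and hg38, with strand setting and treatment of multiply mapped reads not given in the sources used here. Of 43388 rows per human table, 6 hold no values and were left out. Counts were tested in R 4.3.3 with edgeR 4.0.16 (quasi-likelihood F test, TMM factors, filterByExpr with a minimum count of 10, Benjamini-Hochberg adjustment over all genes kept), jointly and in each model, with the replicate number as a block within a model. High and low shear libraries of a number deviated together (r = 0.263 to 0.525 in hBMEC-like cells and 0.261 to 0.502 in hECs), and the study pairs them. CPM are TMM-scaled for these 12 libraries. The interaction test was checked on simulated counts, with changes placed in well-expressed genes and the same spread per gene in both models. The fits within each model and the 3 conditions together were not simulated.

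Alternatives were DESeq2 1.42.0, limma 3.58.1 (voom), other scalings, no filter, no block, stricter thresholds and each pair left out. Named genes were opposite genes of at least 5 CPM on average in each model with the same sign in all pairs, the 12 per direction with the largest smaller-of-both change, the 4 smallest p-values per direction, *KLF2*, *KLF4* and up to 4 members per list. Others are said to be chosen after their values were seen, as are members listed only as going opposite ways. Members and lists were chosen with earlier results of these data known. Positions and promoters are RefSeq GRCh38.p14, matched by symbol.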

Additional observations from a re-analysis of the deposited data

Results flagged for a closer look

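The shear change differed between the models, by the interaction test, for 1429 genes with a higher and 1010 with a lower change in hBMEC-like cells than in hECs. Of these, 261 rose in hBMEC-like cells and fell in hECs and 128 did the reverse. The genes with the smallest interaction p were, on the log2 scale of hBMEC-like minus hEC change, *LTBP4* (2.41), *TFPI2* (3.00), *DGKK* (5.35) and *PDE3A* (3.28) in one direction and *L1TD1* (−4.91), *AIF1L* (−2.41), *VWA1* (−2.88) and *EFNB1* (−3.10) in the other. Of these 8 genes only *TFPI2*, *DGKK* and *AIF1L* were also called in hBMEC-like cells, so for the others the difference rests on the change in hECs.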

How the results depend on the processing

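The count of opposite genes changed most with the pairing. Of the 80 named genes followed through the alternatives, none reversed its interaction under any alternative run. Other genes with values above, among them *ITGA11*, *SLC16A14*, *TOP2A*, *CDK1*, *E2F1*, *SLC7A5*, *JAG1* and *INHBA*, were not followed in this way. Without the replicate block, the interaction was higher in hBMEC-like cells for 532 and lower for 490 genes, 2 and 0 genes went opposite ways, and calls with a higher change in hBMEC-like cells were 7 TGF-beta targets, 8 matricellular proteins, 5 collagens, 5 laminins and integrins, 9 actin and contractile genes, 6 YAP and TAZ targets, 5 smooth muscle markers, 5 shear-repressed genes and 6 transporters; 18 of 80 named genes lost the interaction call and 0 reversed, and in the hBMEC-like fit alone 66 lost their call. At adjusted p under 0.01 the interaction was higher for 780 and lower for 512 genes and 108 and 49 genes went opposite ways, and with at least 0.2 in absolute log2 change in each model 82 genes fell in hBMEC-like cells and rose in hECs. With DESeq2, 221 and 86 genes went opposite ways (200 and 82 shared), and the laminin and integrin median was 0.45. With library totals alone 50.5% of interaction calls were higher in hBMEC-like cells, against 58.6%. With no filter 31 replication genes were called.

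Leaving out each pair gave 850 to 1538 higher and 551 to 1251 lower interactions, and 117 to 259 and 53 to 144 opposite genes, the lowest without replicate 1 of the hECs. Own calls were 794 to 1141 rising and 636 to 899 falling in hBMEC-like cells, and 427 to 1295 rising and 392 to 1222 falling in hECs. Replication calls were 8 to 36, with a median of −0.94 to −0.56, histone calls 3 to 6, with a median of −0.71 to −0.50, collagen calls 8 to 12, with a median of 0.52 to 1.29, the laminin and integrin median 0.32 to 0.77, shear-repressed calls 6 to 11, with a median of 1.89 to 2.94, shear-induced calls 6 to 10, with a median of −0.42 to −0.089, the actin and contractile median 0.30 to 0.41, the TGF-beta target median 0.91 to 1.46, smooth muscle median 1.04 to 1.62, and transporter median 0.16 to 0.28.

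In hCECs, genes that rose in hBMEC-like cells and fell in hECs were called in the hEC direction 13 to 101 times when a pair was left out (101 without hCEC replicate 2), 0 times without the block, 50 with library totals alone, 14 with no filter, 46 with voom and 8 at adjusted p under 0.01, and in the hBMEC-like direction 2 to 15, 0, 5, 6 with voom, 9 with DESeq2 and 1 at 0.01. Those of the reverse class were called in the hEC direction 5 to 49 times with a pair left out, 0 without the block, 21 with library totals, 17 with voom and 3 at 0.01, and in the hBMEC-like direction 0 to 1 times. The causes were not tested. The 3 libraries per group limit hBMEC-like calls, whose changes are mostly under 2-fold.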
